A study of Mus musculus with 38 samples.

Results

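Replication-dependent histone genes encode the linker histone H1 and the core histones H2A, H2B, H3 and H4 that package newly copied DNA. They lie in dense clusters, lack introns for the most part, and are transcribed mainly in S phase, when the coactivator NPAT gathers on them in a nuclear structure called the histone locus body. Their mRNAs end in a short stem-loop, bound by the stem-loop binding protein SLBP, instead of a poly(A) tail. The genes described here were chosen by name from the gene tables, as protein-coding genes whose symbol is H2ac, H2bc, H3c or H4c with a number or H1f1 to H1f6. This gave 68 of 78202 genes, namely 6 H1, 18 H2A, 19 H2B, 12 H3 and 13 H4 genes. On the GRCm39 build, 23 lay in a first cluster on chromosome 13, 31 in a second cluster on chromosome 13, 10 on chromosome 3, 3 on chromosome 11 and 1 on chromosome 6.

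DNA contacts were measured by CUT&RUN: an antibody brings a nuclease to its target, and the DNA released there is sequenced. One antibody recognised LAP2B, which sits in the inner nuclear membrane, another the nuclear lamina protein LMNB1, and a non-specific immunoglobulin (IGG) gave the background. The cells were naive mouse embryonic stem cells (mESCs) in 2i and LIF medium, and epiblast-like cells (EpiLCs), which model the primed state and had been kept with FGF at 20 ng/mL and Activin A at 12 ng/mL. Both were collected at 48 h, with 200000 cells and 0.3 pg of yeast spike-in DNA a library. LAP2B was mapped at both stages in wild-type cells (WT), in cells without the lamin B receptor LBR (LBRKO), in cells without any lamin (TKO) and in cells without the lamins and LBR (QKO). For LMNB1 and IGG there were WT libraries alone. Each of the 12 groups had 3 libraries, and nothing in the labels ties them to separate cultures, so p-values measure the spread between libraries, which may be technical. The LBRKO cells derive from the WT line and the QKO cells are 1 clone derived from the TKO line. In that clone 1 Lbr allele carries a frameshift deletion and the other an in-frame deletion. The study reports that immunostaining detected no LBR in the LBRKO and QKO cells. The TKO line comes from a littermate of the WT line and carries trisomy 8, and a minority of the WT cells carry trisomy 6 and 8. The study itself did not use LAP2B in EpiLCs as a stand-in for lamina contact, because it also gave signal elsewhere.

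A deposited value was read as the spike-in scaled signal summed over the 1 kb bins that a gene touches. Levels below are that value per bin, divided by the same quantity for the median gene of the library, so that 1 is the median gene. Changes are log2 differences of the value per gene, relative to the library's median gene. Recovered read numbers over all genes were 12028659 to 45689196 a library. For the histone genes they were small, 2 to 375 in the LAP2B libraries with a median of 49. Most members touch few bins, but H2bc4 is annotated over 10533 bp and touches 12. In the 8158 genes of 1 bin the recovered number was even in 62.6% to 85.2% of genes, depending on the library, so reads were not independent fragments. The bins of a deleted gene say nothing about its product, and LAP2B levels at the knocked-out loci ranged from 0.687 to 1.92 for Lbr, 0.686 to 10.8 for Lmna, 0.866 to 2.3 for Lmnb1 and 0.517 to 7.38 for Lmnb2. Because the whole bin is summed, signal on a neighbour in that bin is included, and 6 pairs of members share a bin (H2bc26 with H2ac25, H2ac11 with H2bc11, H2ac6 with H2bc4, H3c3 with H2bc3, H4c1 with H3c1, and H2bc1 with H2ac1). The only bin of H2bc11 is also a bin of H2ac11, and that of H2ac1 also a bin of H2bc1. Members that share a bin are not separate observations.

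The stem-loop is the element these genes have in common beyond their names, so it is shown for 10 of the genes whose values in single libraries are described below. It was searched for within 150 bases after the annotated stop codon on the gene's strand as a stem of 6 paired bases that starts with GG and closes with a T-A pair, around a loop of 4 bases with T as the third. A match was found in 66 of 68 members, and in 24 of the 24 with values above 0. H2ac22 and H2bc21 had none in that window. Each line gives the 16 bases of the stem-loop in capitals with 7 flanking bases on either side, 5′ to 3′ on the gene's strand, with the position of the capitals on GRCm39.

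H1f2 (chr13:23923495.0-23923510.0, plus strand): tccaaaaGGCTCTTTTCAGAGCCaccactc
H2ac11 (chr13:22226653.0-22226668.0, minus strand): caacaaaGGCTCTTTTCAGAGCCacctaac
H3c1 (chr13:23945873.0-23945888.0, minus strand): aaccaaaGGCTCTTTTCAGAGCCacacacg
H2ac1 (chr13:24118874.0-24118889.0, plus strand): acaaaaaGGCTCTTTTCAGAGCCaccttca
H2bc1 (chr13:24117713.0-24117728.0, minus strand): acccaaaGGCTCTTTTAAGAGCCacccacc
H3c3 (chr13:23929030.0-23929045.0, minus strand): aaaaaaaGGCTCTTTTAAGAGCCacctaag
H4c16 (chr6:136780996.0-136781011.0, minus strand): ccacaaaGGCCCTTTTCAGGGCCcacaaag
H4c9 (chr13:22225136.0-22225151.0, minus strand): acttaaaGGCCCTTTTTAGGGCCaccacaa
H4c2 (chr13:23941349.0-23941364.0, plus strand): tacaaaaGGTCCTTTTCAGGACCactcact
H4c1 (chr13:23944783.0-23944798.0, minus strand): aaccaaaGGCCCTTCTCAGGGCCgcccaca

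The form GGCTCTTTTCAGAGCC was found in 42 members, all of the H1, H2A, H2B and H3 classes, and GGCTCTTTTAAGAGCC in 9 more of these classes. The H4 genes had other stems, with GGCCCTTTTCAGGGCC in 8 of 13. The germ-line genes H2ac1 and H2bc1, described below, carry these 2 forms, which H3c1, H3c3 and H2ac11 also have.

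Upstream sequence was also compared. In the 300 bases from 250 before to 50 after the annotated start (GENCODE M39), the motif CCAAT, on either strand, was present in 79.4% of the 68 member promoters and in 39.8% of 21683 protein-coding promoters. The motif TATAAA was present in 50% and 13.7%. The octamer ATTTGCAT, a binding site of POU-domain factors, was present in 20.6% and 1.7%, and its 14 member promoters all belonged to H2A and H2B genes. Motifs that overlap were counted separately, and each was searched for on either strand. Windows of H2A and H2B genes that start back to back can overlap, as those of H2ac12 and H2bc12 do. The same site then counts for both promoters, so the member shares count some sites more than once. These matches only describe letters. A promoter is printed for a core histone gene that gained LAP2B in mutants, for a linker histone gene that did, and for H2ac1, a germ-line gene not called in naive mutants, with every match in capitals.

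H2ac12 (chr13:22219689-22219988, minus strand): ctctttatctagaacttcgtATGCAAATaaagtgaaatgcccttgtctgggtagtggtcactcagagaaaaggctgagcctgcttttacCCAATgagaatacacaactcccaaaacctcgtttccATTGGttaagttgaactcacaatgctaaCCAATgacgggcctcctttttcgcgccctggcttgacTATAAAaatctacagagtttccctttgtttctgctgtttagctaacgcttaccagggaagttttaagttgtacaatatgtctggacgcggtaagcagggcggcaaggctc
H1f2 (chr13:23922541-23922840, plus strand): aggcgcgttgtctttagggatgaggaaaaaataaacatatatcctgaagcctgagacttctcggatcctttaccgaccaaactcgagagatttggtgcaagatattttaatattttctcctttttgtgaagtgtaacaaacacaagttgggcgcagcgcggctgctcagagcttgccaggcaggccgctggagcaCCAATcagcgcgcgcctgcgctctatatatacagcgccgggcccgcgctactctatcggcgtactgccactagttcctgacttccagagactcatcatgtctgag
H2ac1 (chr13:24118195-24118494, plus strand): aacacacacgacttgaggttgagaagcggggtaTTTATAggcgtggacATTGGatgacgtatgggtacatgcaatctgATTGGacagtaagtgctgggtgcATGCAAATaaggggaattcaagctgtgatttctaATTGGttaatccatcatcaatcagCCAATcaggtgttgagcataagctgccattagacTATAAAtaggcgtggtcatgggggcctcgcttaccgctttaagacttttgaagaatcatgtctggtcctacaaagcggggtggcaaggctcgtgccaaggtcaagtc

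H2ac12 and H2ac1 each hold all 3 motifs, and H1f2 holds CCAAT alone.

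Of the 68 genes, 44 (64.7%) were listed at exactly 0 in all 36 libraries. They form 3 unbroken runs of members. The run in the first chromosome 13 cluster spans chr13:21899933-22021700, 121.8 kb with 18 members from H2bc13 to H2bc24. That in the second cluster spans chr13:23715220-23806541, 91.3 kb with 16 members from H4c8 to H1f4, and the last holds all 10 members on chromosome 3, chr3:96127181-96177448, 50.3 kb. Every other gene lying wholly inside these runs was also at 0, 13 of 13, 8 of 8 and 8 of 8. Over all protein-coding genes, 747 of 21687 (3.44%) were at 0. A 0 is read here as no value for the region, not as a low level. The study's methods leave blacklisted regions out of the gene tables, but that list was not used here and its part was not tested. Near-identical copies were common in both sets. The share of a member's 50-base words that occur more than once in the genome had a median of 53.2% in the members at 0 (range 0.0% to 100.0%) and 25.0% in the others (range 0.0% to 90.7%), and reads from such words may belong to a sister gene.

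All values that follow concern the other 24 genes, 3 H1, 6 H2A, 7 H2B, 3 H3 and 5 H4, all of which passed the filter on low values. They lie in 5 places of unequal size, with 5 genes at the end of the first chromosome 13 cluster, 13 in the second cluster, the germ-line pair H2bc1 and H2ac1 beyond it, 3 genes on chromosome 11 and H4c16 on chromosome 6. The map of naive LAP2B along the chromosome 13 clusters shows these positions beside the runs at 0.

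**Figure D1:**
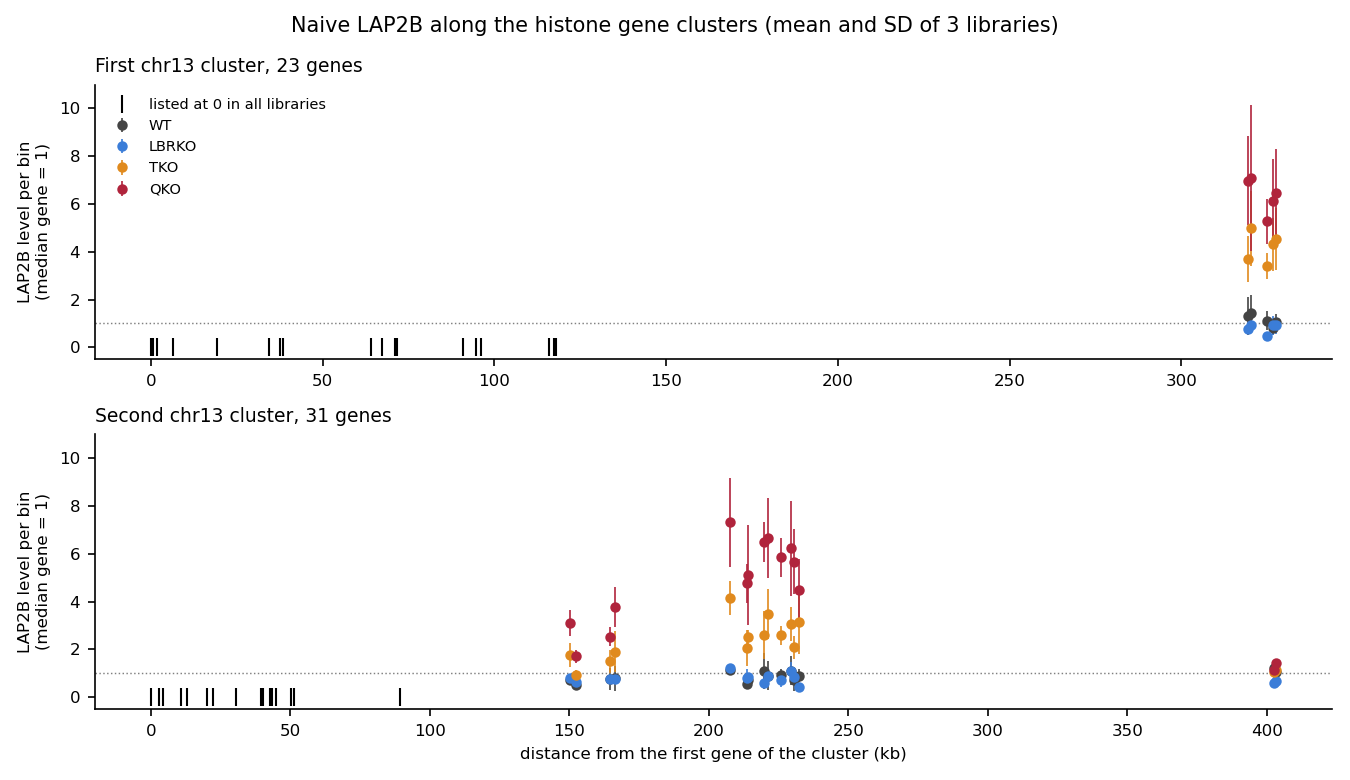
LAP2B level per bin in naive cells (y axis, median gene = 1) against distance in kb from the first member of each chromosome 13 cluster; points are the mean of 3 libraries and bars the SD, and black ticks mark members listed at 0. QKO levels reach 7.32 in the second cluster and are near 1 in the germ-line pair at its far end.

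In naive WT cells the histone genes were close to the median gene with both lamina antibodies. The median LAP2B level over the 24 genes was 0.925 ± 0.25 (SD, n = 3 libraries), and that of LMNB1 0.796 ± 0.089. With IGG it was 1.64 ± 0.083. The 3 tables were normalized separately, so these levels are given side by side without a test. The 1315 other protein-coding genes of 1 to 3 bins had a median of 1.22 ± 0.016 with LAP2B, 1.19 ± 0.011 with LMNB1 and 1.17 ± 0.038 with IGG.

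Naive WT levels varied among members and, for many of them, as much between libraries. In the H1 class, H1f2 had the highest naive WT LAP2B level, 1.15 ± 0.21, and H1f6, a testis form of H1, the lowest, 0.747 ± 0.46. Among H2A genes the range was 1.30 ± 0.79 (H2ac12) to 0.465 ± 0.15 (H2ac25), among H2B genes 1.43 ± 0.75 (H2bc12) to 0.493 ± 0.10 (H2bc4), and among H3 genes 0.887 ± 0.61 (H3c2) to 0.555 ± 0.13 (H3c3). The level of H2bc4 is an average over its 12 bins, more than the other measured members touch. Among H4 genes the highest level was 1.68 ± 0.64 (H4c16) and the lowest 0.788 ± 0.53 (H4c3). H4c16 also had the highest LMNB1 level of all 24 members, 2.07 ± 0.28. It is the member that stands by itself on chromosome 6.

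In naive cells most measured histone genes carried more LAP2B signal in TKO and QKO than in WT. In TKO against WT, 21 of 24 members were called higher and 0 lower (limma, adjusted p under 0.05 over the 70381 genes tested), where 21.8% of all genes tested were called higher and 27.5% lower. The median log2 change over members was 1.22, and -0.11 over all genes tested. The libraries of the groups did not overlap, with TKO higher, in 17 of 24 members, against 21.8% of all genes (29.3% with TKO lower). Among the 26486 genes of 1 to 3 bins 13.2% were called higher. In QKO against WT 22 of 24 members were called higher and 0 lower, where 33.2% of all genes tested were higher and 42.3% lower. Here the median log2 change was 1.77 over members and -0.22 over all genes, and 21 of 24 members had QKO libraries above all WT libraries, against 33.5% of genes, and 1 had them below, against 41.9%. Among genes of 1 to 3 bins 26.4% were called higher. LBRKO against WT gave 3 members higher and 3 lower, with 28.9% of all genes higher and 27.6% lower and a median log2 change of 0.03. Its libraries did not overlap those of WT in 3 members with LBRKO higher (28.9% of all genes) and 3 with it lower (28.5%). All these comparisons share the 3 naive WT libraries.

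**Figure D2:**
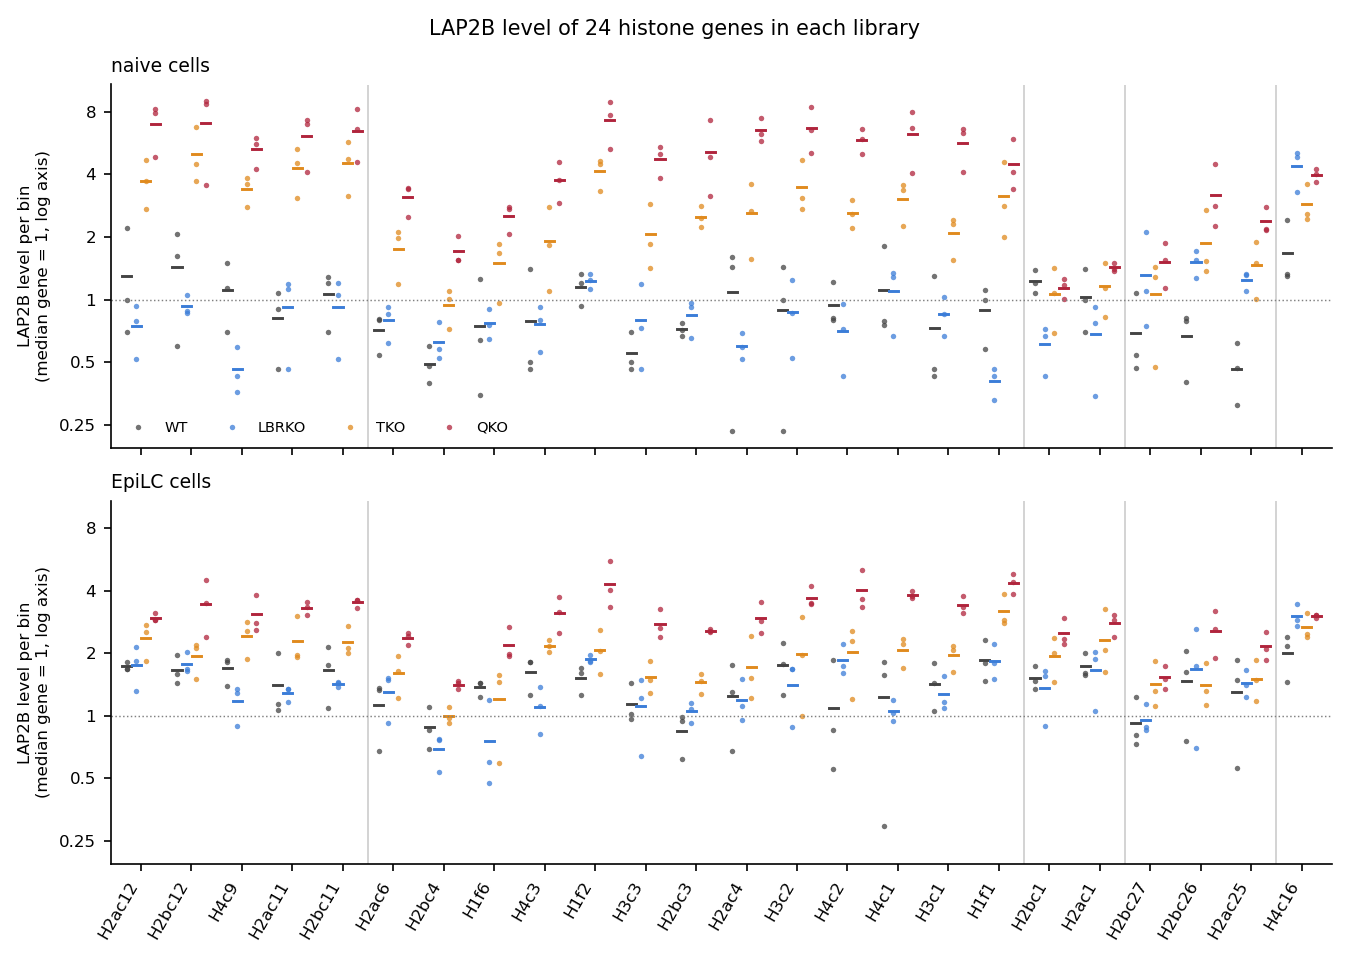
LAP2B level per bin (log axis, median gene = 1) of each of the 24 members in naive cells (top) and EpiLCs (bottom); points are libraries, bars the mean of 3, colours the genotype, and grey lines separate the genomic places. In naive cells QKO libraries lie highest for most members of both chromosome 13 clusters, and the germ-line pair H2bc1 and H2ac1 stays near 1.

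These counts rest on levels relative to each library's median gene. On the deposited spike-in scale the median of all genes itself fell, by 0.66 on the log2 scale in naive TKO and by 1.27 in naive QKO against WT. On that scale 9 members were higher and 0 lower in TKO, where 2.46% of all genes tested were higher and 47.3% lower. In QKO 11 were higher and 1 (H2bc1) lower, where 10.2% of all genes were higher and 65.4% lower. The median log2 change over members was then 0.73 in TKO and 0.72 in QKO. In LBRKO 4 were higher and 1 (H4c9) lower, where 28.2% of all genes were higher and 17.5% lower.

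H1f2, a linker histone of somatic cells, had the highest naive QKO level of the second cluster. Its LAP2B levels were 1.33, 0.93 and 1.20 in the naive WT libraries and 1.24, 1.32 and 1.12 in LBRKO. The TKO libraries had 3.33, 4.49 and 4.64, those of QKO 7.71, 5.28 and 8.95. TKO and QKO libraries thus lay above all WT and LBRKO libraries. The log2 change was 1.61 ± 0.22 (SE) in TKO (limma adjusted p = 4.6e-08) and 2.20 in QKO. Only 8.5% of the 50-base words of H1f2 recur in the genome. Its bins also hold bases outside the gene, whose words were not counted.

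H2ac11, a core H2A gene at the end of the first cluster, had 1.07, 0.465 and 0.90 in naive WT, 4.54, 3.09 and 5.29 in TKO, and 6.96, 4.11 and 7.30 in QKO. Again no mutant library of these genotypes overlapped WT. Its change was the largest among members in TKO, 2.02 ± 0.29 (limma adjusted p = 9.1e-08), and 2.31 ± 0.29 in QKO (limma adjusted p = 5.6e-10). Its neighbour H2bc11, which shares a bin with it, changed by 1.59 ± 0.29 in TKO (limma adjusted p = 1.0e-05). Within the gene H2ac11, 79.1% of the 50-base words recur, so reads there may belong to other H2A genes. Words in the rest of its bins were not counted, so the share of its reads this concerns is not known.

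H3c1 and H3c3, H3 genes of the second cluster, had the largest log2 changes among members in naive QKO. H3c1 had 0.429, 0.465 and 1.30 in naive WT and 6.29, 4.11 and 6.60 in QKO, a log2 change of 2.39 ± 0.29 (limma adjusted p = 1.4e-10). H3c3 had 0.50, 0.465 and 0.70 in WT and 5.43, 3.85 and 5.01 in QKO, a log2 change of 2.36 ± 0.29 (limma adjusted p = 4.3e-10). For both genes the lowest QKO library was above the highest WT library, and the WT values rest on 8 to 26 reads a library.

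QKO levels differed along the clusters, which is described without a test. At the end of the first cluster the 5 genes had a median of 6.47 ± 2.05 in naive QKO against 1.01 ± 0.28 in WT. In the second cluster, H2ac6, H1f6 and H4c3 had mean levels of 2.52 to 3.76 in QKO, and the 9 genes from H1f2 to H1f1 had 4.48 to 7.32. H2bc4, beside H2ac6, had 1.7, an average over 12 bins that is not like for like with genes of fewer bins. All 13 genes of that cluster were called higher in both TKO and QKO. On chromosome 11, H2bc26 and H2ac25 were called higher in both, and H2bc27 in QKO alone with a log2 change of 0.76 (0.39 in TKO); the difference between TKO and QKO was not tested.

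**Figure D3:**
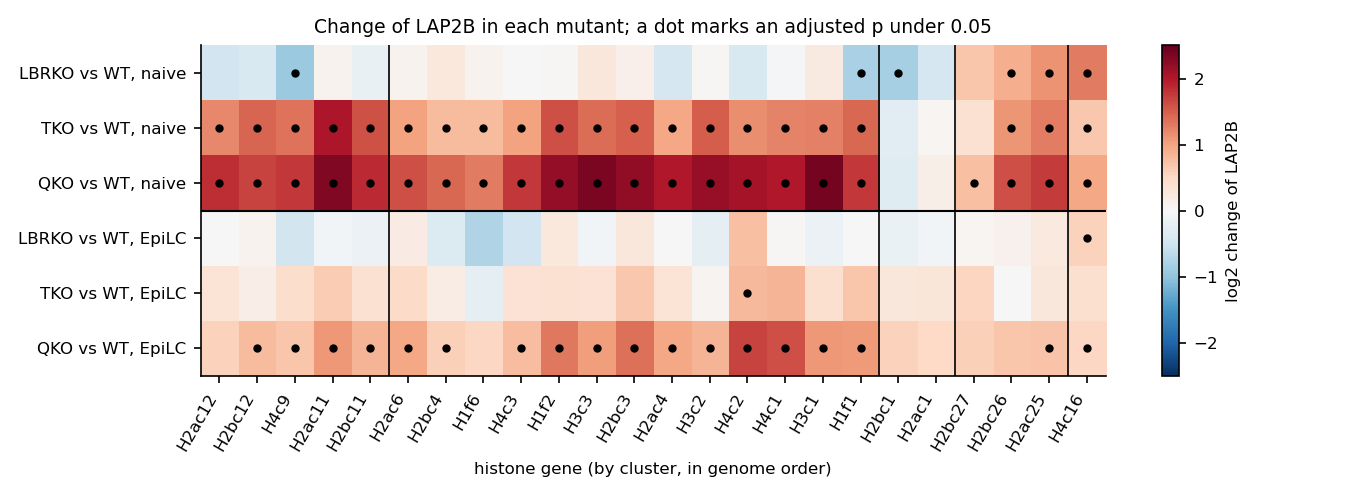
log2 change of LAP2B (colour, relative to the median gene) for the 24 members (columns, by place and in genome order) in each mutant against WT at each stage (rows); a dot marks a limma adjusted p under 0.05. The TKO and QKO rows of naive cells are filled except at H2bc1 and H2ac1, and at H2bc27 in TKO.

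The germ-line pair was not called in TKO or QKO at either stage. H2ac1 and H2bc1 encode testis forms of H2A and H2B and are transcribed away from each other from a shared upstream region. H2bc1 had LAP2B levels of 1.07, 1.4 and 1.20 in naive WT, 1.07, 0.688 and 1.42 in TKO and 1.25, 1.01 and 1.17 in QKO. H2ac1 had 1.00, 0.697 and 1.4 in WT, 1.14, 0.825 and 1.5 in TKO and 1.5, 1.38 and 1.4 in QKO. These levels overlapped between WT and each mutant, and the log2 changes in QKO, -0.31 for H2bc1 and 0.15 for H2ac1, did not pass the threshold. For H2bc1 the values per gene relative to the median gene, on which the test was run, did not overlap and were lower in QKO. On the spike-in scale H2bc1 fell by 1.27 in QKO (limma adjusted p = 8.1e-04). The median of all genes also fell by 1.27 on that scale, and 65.4% of all genes were called lower. In EpiLCs the median over the pair was 1.62 ± 0.14 in WT, 2.13 ± 0.64 in TKO and 2.64 ± 0.32 in QKO. H2bc1 had 1.73, 1.47 and 1.35 in EpiLC WT and 2.20, 2.97 and 2.34 in EpiLC QKO, and H2ac1 had 1.60, 2.00 and 1.58 in WT and 2.39, 2.9 and 3.05 in QKO. The QKO libraries of both genes lay above all WT libraries, but the log2 changes, 0.58 for H2bc1 and 0.50 for H2ac1, did not pass the threshold (limma adjusted p = 0.10 and 0.19). As the only bin of H2ac1 is also counted in H2bc1, the 2 genes are not separate observations. H1f6, the other germ-line form, lies inside the second cluster and was called higher in both TKO (log2 change 0.79) and QKO (1.31).

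In naive LBRKO the 3 members called higher and the 3 called lower were a smaller share of the 24 than the 28.9% and 27.6% of all genes called. H4c16 had 1.32, 2.41 and 1.30 in naive WT and 4.84, 3.3 and 5.07 in LBRKO, a log2 change of 1.30 ± 0.20 (limma adjusted p = 3.8e-07), and its LBRKO libraries lay above all WT libraries. On chromosome 11, H2ac25 changed by 1.13 ± 0.29 (limma adjusted p = 7.7e-04) and H2bc26, which shares a bin with it, by 0.91 ± 0.33 (limma adjusted p = 0.015). On chromosome 13 the calls were falls: H4c9 fell by 0.94 ± 0.27 on the log2 scale (limma adjusted p = 0.0025), H2bc1 fell by 0.82 ± 0.28 (limma adjusted p = 0.011) and H1f1 fell by 0.80 ± 0.27 (limma adjusted p = 0.011). H4c9 had 1.14, 0.697 and 1.5 in WT and 0.361, 0.431 and 0.593 in LBRKO, without overlap. A minority of the WT cells carries trisomy 6, so the number of copies of the H4c16 region and the genotype cannot be told apart.

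In EpiLCs the same genotypes were tested against EpiLC WT. In QKO 18 of 24 members were called higher and 0 lower, where 18.3% of all genes tested were higher and 17.8% lower, and the median log2 change was 0.82. Among genes of 1 to 3 bins 8.05% were called higher. TKO gave 1 member higher, H4c2 (0.82 ± 0.29, limma adjusted p = 0.044), with 8.68% of all genes higher and 9.94% lower, and a median of 0.37. LBRKO gave 1 member higher, H4c16 (0.57 ± 0.20, limma adjusted p = 0.034), with 13.3% of all genes higher and 10.1% lower. On the spike-in scale the median of all genes fell by 0.77 on the log2 scale in EpiLC QKO. There 2 members, H4c1 and H4c2, were higher in QKO and 0 lower, where 0.122% of all genes were higher and 55.4% lower. The median log2 change over members was then 0.096 in EpiLC QKO and 0.14 in EpiLC TKO. On this scale 0 members were called in TKO (limma; 1 at an unadjusted p under 0.05), where 0.0995% of all genes were higher and 9.2% lower. In LBRKO 0 were called (limma; 3 at an unadjusted p under 0.05), where 5.45% were higher and 3.35% lower.

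H4c2 had the largest change in EpiLC QKO. Its levels were 1.85, 0.853 and 0.558 in EpiLC WT, 2.29, 1.21 and 2.55 in TKO and 3.64, 5.03 and 3.34 in QKO. QKO libraries lay above all WT libraries, whereas TKO and WT overlapped. The log2 change in QKO was 1.70 ± 0.29 (limma adjusted p = 8.7e-06). H4c1 followed with 1.61 ± 0.33 (limma adjusted p = 9.9e-05) and H2bc3 with 1.39 ± 0.25 (limma adjusted p = 2.3e-05). For H4c1 the first WT library, at 0.295 on 7 reads, was far below the other 2, at 1.82 and 1.58. Without that WT library, 9 members were called higher in EpiLC QKO.

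WT cells themselves changed between the stages. From naive cells to EpiLCs, 8 of 24 members were called higher with LAP2B and 0 lower, where 15.1% of all genes tested were higher and 17.1% lower, and the median log2 change was 0.55. The largest were H2ac25 (1.14 ± 0.29, limma adjusted p = 0.0018), H4c3 (0.97 ± 0.30, limma adjusted p = 0.0099) and H1f1 (0.91 ± 0.27, limma adjusted p = 0.0082). The levels of H1f1 were 1.11, 0.581 and 1.00 in naive WT and 1.48, 1.79 and 2.32 in EpiLC WT, without overlap, while those of H2ac25 overlapped because 1 EpiLC library was at 0.562. Without the second naive WT library 4 members were called, and without the second or the third EpiLC WT library 5. With LMNB1 0 members were called (limma; 3 at an unadjusted p under 0.05, DESeq2 calls 1 and edgeR 0), where 6.34% of all genes were higher and 7.08% lower, and the median log2 change was 0.25. With IGG 0 were called (limma; 3 at an unadjusted p under 0.05, edgeR and DESeq2 0), where 0.49% of all genes were called, 0.0725% higher and 0.418% lower, and the median was 0.20. On the spike-in scale the median of all genes moved by 0.84 with IGG, 0.23 with LMNB1 and 0.09 with LAP2B. On that scale 9 members were higher with LAP2B and 0 lower, where 10.4% of all genes were higher and 1.68% lower. With LMNB1 0 were called (limma; 5 at an unadjusted p under 0.05), where 8.01% were higher and 0.247% lower. With IGG 0 were called (limma; 12 at an unadjusted p under 0.05), where 0.0% were higher and 0.0% lower.

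The changes in mutants were smaller in EpiLCs than in naive cells for some members by a direct test of the difference. Smaller and larger are signed here and below, so a fall that was weaker in EpiLCs counts as a larger change. The shares of all genes are therefore not shares of weakened or strengthened effects. For QKO, 11 of 24 members had a smaller change in EpiLCs and 0 a larger one, where 21.0% of all genes had a smaller and 24.8% a larger value. The largest differences were those of H3c2 (-1.32 ± 0.46, limma adjusted p = 0.016), H3c1 (-1.31 ± 0.40, limma adjusted p = 0.0066) and H3c3 (-1.30 ± 0.41, limma adjusted p = 0.0084). For TKO, 4 members had a smaller change in EpiLCs, H3c2, H2ac11, H1f2 and H2bc11, where 3.81% of all genes did. For LBRKO 1 member, H4c2, had a larger change in EpiLCs, where 10.2% of all genes did and 9.55% had a smaller one. On the spike-in scale 0 members passed in any of the 3 tests (limma; 5, 4 and 4 at an unadjusted p under 0.05 for LBRKO, TKO and QKO). The shares of all genes with a larger and a smaller change on that scale were 0.0952% and 0.56% for LBRKO, 0.844% and 0.00995% for TKO, and 22.3% and 7.78% for QKO. For QKO, 4 to 15 members passed when each library in turn was left out, with 4 without the second naive WT library or the second EpiLC WT library. It was 7 without QKO EpiLC replicate 3 or QKO naive replicate 1 or 3. For TKO the range was 1 to 6, with 1 without TKO EpiLC replicate 1 or 3, TKO naive replicate 3, or WT replicate 2 of either stage, and 2 without WT EpiLC replicate 3. For LBRKO the single call was lost without any 1 of the 3 EpiLC LBRKO libraries. DESeq2 called 2 members with a smaller change in EpiLCs, and 9082 of all 70381 genes. With libraries divided by their mean the H4c2 call was also lost. There 1 member had a smaller change in EpiLCs, as had 9973 of all 70381 genes. The germ-line pair had differences of the other sign in QKO, 0.88 for H2bc1 and 0.35 for H2ac1, which did not pass the threshold.

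Levels in the mutants were also set beside the background antibody. Over the 24 members, the order of LAP2B levels in naive TKO resembled that of IGG levels in naive WT (Spearman's rho 0.85), and the same held for QKO (0.77), while rho was 0.44 for naive WT LAP2B and 0.24 for LBRKO. In EpiLCs rho with EpiLC WT IGG was 0.58 for both QKO and WT LAP2B. LAP2B and LMNB1 in naive WT had a rho of 0.40, and TKO and QKO one of 0.90. Naive WT means ran only from 0.465 (H2ac25) to 1.68 (H4c16), and for many members libraries differed as much. LBRKO means ran from 0.408 (H1f1) to 1.51 (H2bc26), with H4c16 at 4.40. In QKO the means ran from 1.14 (H2bc1) to 7.32 (H1f2). The part of the narrower range in the lower rho of WT and LBRKO was not tested. All points come from the same libraries and some members share a bin, so the rho values only describe the members. IGG was not mapped in the mutants, and the part of background cutting in the changes was not tested. The median LAP2B level over members was 4.88 ± 1.09 in naive QKO and 2.48 ± 0.19 in naive TKO; it is not compared with the IGG level, which comes from a table normalized separately.

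**Figure D4:**
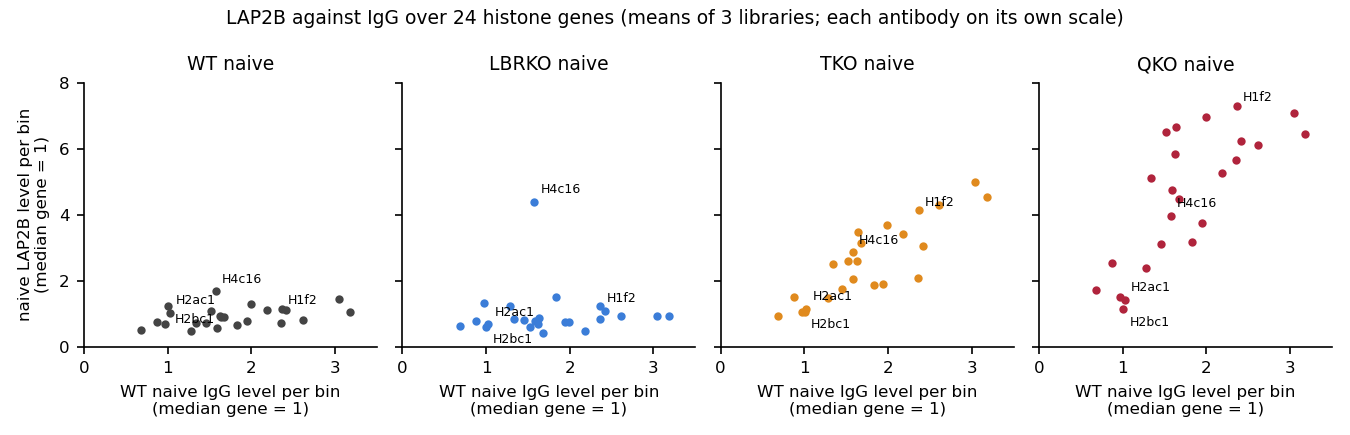
LAP2B level per bin in each naive genotype (y axis, median gene = 1) against the naive WT IGG level per bin (x axis) over the 24 members, means of 3 libraries; each antibody has its own scale, so heights and positions are not compared. The points of TKO and QKO follow the order of the IGG levels more closely than those of WT and LBRKO. Spearman's rho is 0.85, 0.77, 0.44 and 0.24 in that order, and H4c16 stands apart in LBRKO. WT means span a narrower range, 0.465 to 1.68, than QKO means, 1.14 to 7.32.

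Other histone genes and ribosomal protein genes were read in the same way. The list named here replication-independent histone genes holds histone variants and germ-line linker histones outside the naming rule of the members. It was fixed by symbol, and the stem-loop was not searched for in these genes. Of the 14 tested (of 15 found), 12 were called higher in naive QKO and 0 lower, with a median log2 change of 1.51. In TKO 11 were higher, and in LBRKO 11, where 28.9% of all genes were higher. H2ax, which is phosphorylated at DNA breaks, changed by 3.44 and H3f3b, which encodes the replacement histone H3.3, by 2.15. Of 88 ribosomal protein genes tested (of 89) 78 were higher and 0 lower in naive QKO, with a median of 1.41, and 66 were higher in TKO. The median level of these ribosomal protein genes in naive QKO was 2.82 ± 0.49, that of the replication-independent genes 2.37 ± 0.37. On the spike-in scale 5 replication-independent genes were higher and 2 lower in naive QKO, and 30 ribosomal protein genes were higher and 9 lower. The TKO and LBRKO counts of these lists are given relative to the median gene alone. In naive TKO 21.8% of all genes were higher by that measure and 2.46% on the spike-in scale. The background shares of naive QKO and TKO given above apply to these lists too.

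**Figure D5:**
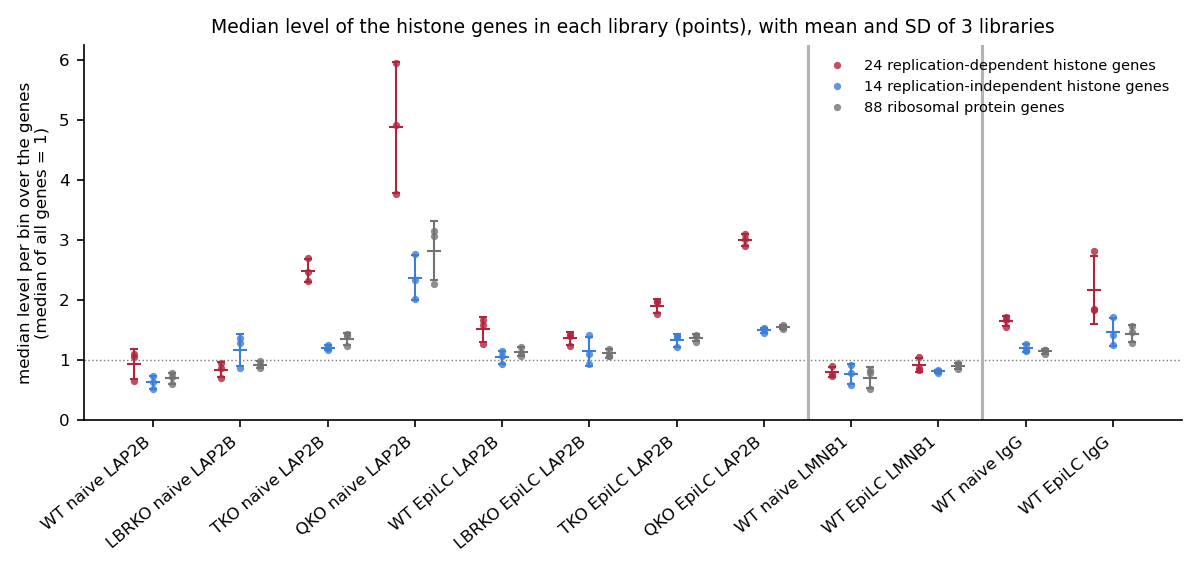
Median level per bin over 24 replication-dependent histone genes, 14 replication-independent ones and 88 ribosomal protein genes (y axis, median of all genes = 1) in every library (points), with the mean and SD of 3 libraries, by group. The replication-dependent genes have the highest median in naive QKO, 4.88.

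Genes that act on histone mRNA and on histones followed. Among 27 genes for the transcription and processing of histone mRNA, 17 were higher and 4 lower in naive QKO, with a median log2 change of 0.84, and 14 higher and 2 lower in TKO. Slbp changed by 1.76, Casp8ap2, a part of the histone locus body, by 0.83 and Npat by 0.40, all called relative to the median gene, while Cpsf2, of the cleavage complex, fell by 0.68 on the log2 scale. In LBRKO 20 were higher and 2 lower, with Npat at 1.17, where 28.9% of all genes were higher and 27.6% lower. With spike-in scaled values 8 were higher and 12 lower in naive QKO, where 10.2% of all genes were higher and 65.4% lower, and the median was -0.36 against -1.27 over all genes. In naive TKO 1 was higher and 8 lower (2.46% and 47.3% of all genes), and in LBRKO 19 were higher and 0 lower (28.2% and 17.5%). Of 13 histone chaperone genes tested (of 14), 12 were higher and 0 lower in naive QKO, with a median of 1.20. Spike-in scaled, 3 were higher and 4 lower, with a median of -0.03 beside the all-gene values of that scale just given. The largest was Daxx, a chaperone of H3.3, at 3.47, followed by Nasp, which holds soluble H3 and H4, at 2.68.

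Of the 9 other protein-coding genes within the histone clusters, 5 were higher and 1 lower in naive QKO, where 33.2% of all genes were higher and 42.3% lower. By spike-in scaled values 0 were higher and 4 lower (limma), with a median of -0.40, where 10.2% of all genes were higher and 65.4% lower with a median of -1.27. Relative to the median gene, Hfe, the gene of the iron regulator mutated in haemochromatosis, changed by 1.20, and its level went from 0.783 ± 0.037 in WT to 2.28 ± 0.29 in QKO. The 4 phosphate and urate transporter genes Slc17a1 to Slc17a4 were not called higher. Slc17a1 fell by 0.46 on the log2 scale, and the others had values of -0.15 to -0.31 that did not pass the threshold. Their levels per bin stayed between 0.535 and 0.587 in QKO. Levels and changes are on different scales: in naive QKO the median log2 change over all genes was -0.22 per gene and 0.03 per bin. Small changes can thus differ in size or sign between the scales.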

How the data were processed

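The authors aligned CUT&RUN reads with Bowtie2 2.3.5.1, used SAMtools 1.10 and deepTools (submitters' processing notes), and deposited, for each gene and library, a signal summed over 1 kb bins after scaling by depth and yeast spike-in. Whole reads were recovered for 100.0% of the values tested (tolerance 0.05). Here values were expressed relative to the median gene of the library, the 10% of genes with the lowest mean were left out, and log2(value + 0.1) was fitted with limma 3.58.1 (R 4.3.3) on all groups of an antibody, with Benjamini-Hochberg adjustment over 70381 genes. Fold changes on this scale understate changes of low genes. The tables of the 3 antibodies were normalized separately. edgeR 4.0.16 and DESeq2 1.42.0 were run on the recovered reads as alternatives. The fit was tested on simulated data. There few genes changed and counts were drawn separately for each gene, unlike in these data, so the scaling was not tested by it. Gene coordinates and sequences come from GRCm39 with GENCODE M39, which held 99.9% of the genes. Named in each comparison were the 3 members with the largest rise and the 3 with the largest fall among those called, the extremes of each class in naive WT, germ-line and outlying members, and the list genes. The genes used as examples for the lists and the read-outs without a test were chosen after their values were seen. Members and lists were chosen with earlier results of these data known. The 2 H3K9me3 samples and the tables of transposable elements were not used here.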

Additional observations from a re-analysis of the deposited data

Results flagged for a closer look

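The test of whether a mutant's change differed between EpiLCs and naive cells passed the threshold for at least 1 member with each genotype (limma, adjusted p under 0.05 over all genes tested). Smaller and larger are signed, so a fall that was weaker in EpiLCs counts as a larger change. For QKO it passed for 11 of 24 members, all with a smaller change in EpiLCs, where 21.0% of all genes had a smaller one. For TKO it passed for 4, all smaller in EpiLCs, where 3.81% of all genes did. For LBRKO it passed for 1, H4c2, with a larger change in EpiLCs. That is a smaller share of the 24 members than the 10.2% of all genes that had one. The call for H4c2 was lost with libraries divided by their mean, where 1 member had a smaller change, as had 9973 of all 70381 genes. These tests share the WT libraries. Groups of 3 libraries were too small for a test of single outlying libraries.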

How the results depend on the processing

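The counts for naive TKO and QKO moved by over 1.5 times on the spike-in scale alone among the alternatives run. Of the counts recomputed, 151 stayed within 1.5 times the reported value and 54 did not. On the spike-in scale the counts were 9 for naive TKO, 12 for naive QKO, 0 for EpiLC LBRKO, 0 for EpiLC TKO, 2 for EpiLC QKO and 0 for each test of the difference between stages. For EpiLC TKO the count was 4 with libraries divided by their mean, 2 with a pseudocount of 0.02, 0 with no filter, 0 with edgeR and 3 with DESeq2. Of all 70381 genes, 9421 were higher with libraries divided by their mean, 4350 with edgeR and 6128 with DESeq2. For EpiLC LBRKO it was 0 with no filter and 0 with values per bin, an alternative chosen after seeing the data. For the LBRKO difference between stages it was 0 with a pseudocount of 0.5, with no filter, with values per bin and with edgeR, and 2 with DESeq2, both with a smaller change in EpiLCs. With libraries divided by their mean it was again 1, but a member with a smaller change in EpiLCs, and H4c2 no longer passed. Of all 70381 genes, 9082 had a smaller change with DESeq2 and 9973 with libraries divided by their mean. For the TKO difference it was 2 with no filter, 2 with values per bin and 8 with DESeq2. A smaller change was called for 1781 of 70312 genes with values per bin and for 5125 of 70381 with DESeq2. With only the 2 groups compared in the fit, 4 members were called between stages in WT LAP2B, and DESeq2 called 1 with LMNB1. The cause of these differences was not tested.

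Leaving out each library in turn gave 5 to 7 members for naive LBRKO, 19 to 21 for naive TKO, 21 to 22 for naive QKO, 0 to 2 for EpiLC LBRKO, 0 to 2 for EpiLC TKO, 9 to 16 for EpiLC QKO, 4 to 9 between stages in WT LAP2B, 0 to 0 with LMNB1 and 0 to 0 with IGG. For the difference between stages it gave 0 to 2 for LBRKO, 1 to 6 for TKO and 4 to 15 for QKO. For that LBRKO test the count was 0 without any 1 EpiLC LBRKO library, the first naive LBRKO, the first naive WT or the third EpiLC WT library, and 2 without the first EpiLC WT library. EpiLC TKO fell to 0 without TKO EpiLC replicate 1 or 3, and EpiLC LBRKO to 0 without LBRKO EpiLC replicate 1 or WT EpiLC replicate 2. EpiLC TKO had 2 without WT EpiLC replicate 2, and EpiLC LBRKO 2 without WT EpiLC replicate 1.

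Replicate numbers were not used as pairs, since in no comparison did every same-numbered pair correlate above 0.1. In naive QKO against WT these correlations were 0.05, 0.18 and 0.04, so this check cannot exclude weak pairing. With the replicate number as a block, EpiLC TKO had 2 members called, and no other count moved by over 1.5 times. Few reads a gene limit the precision of single members.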
